A study of Mus musculus with 18 samples.

Results

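The 37 genes of the mouse mitochondrial chromosome were followed through 18 libraries of 3′ mRNA sequencing (QuantSeq) from AT3 cells, a mouse mammary carcinoma line that the study used as a model of triple-negative breast cancer. They were taken as every row of the count table whose gene lies on chromosome M, and comprised 13 mRNAs, 2 rRNAs and 22 tRNAs among 43629 genes. A filter on low counts left 31 of them among 11964 genes tested, and the 6 that did not pass were the tRNA genes mt-Tf, mt-Ty, mt-Tr, mt-Th, mt-Ts2 and mt-Tl2. Both inhibitors studied, A-241 (250 nM) and A-485 (1000 nM), block the catalytic acetyltransferase domain of P300 and CBP, nuclear co-activators that acetylate histones at enhancers and promoters. Cells were pre-treated with DMSO vehicle or one inhibitor for 1 h, and IFNγ or its vehicle was then added for a further 2 h. The inhibitor stayed on throughout, for 3 h in total. This gave 6 conditions of 3 libraries each, called DMSO, A-241, A-485, IFNγ, A-241+IFNγ and A-485+IFNγ. All conditions used the same line, and the labels name no engineered gene. The study's methods call the triplicates technical and the sample labels call them biological, so p-values measure the spread between these libraries, which may be technical. The doses of the inhibitors were not matched.

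Mitochondrial DNA is a small circle that is transcribed from both strands into long precursor RNAs. The tRNAs lie between most of the mRNAs and rRNAs, and their excision releases the other transcripts, most of which then receive A tails. Transcription is carried out inside the organelle by a dedicated polymerase, POLRMT, with the factors TFAM and TFB2M, all of which are encoded in the nucleus. The 13 mRNAs encode core subunits of respiratory complexes I, III and IV and of ATP synthase, and the remaining subunits come from nuclear genes. P300 and CBP act on nuclear chromatin, and mitochondrial DNA is not packed in nucleosomes.

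A library primed on A tails reads the ends of transcripts. The annotation ends each of these mRNAs with its coding sequence, but in mammalian mitochondria the transcripts of mt-Co1, mt-Nd5 and mt-Nd6 are known to run past the stop codon, that of mt-Nd5 antisense to mt-Nd6. In the annotation of GRCm38 (GENCODE vM21), 10 of the 13 mRNAs ended in a whole stop codon and 3 were 1 base past a whole codon, ending in a single T. For those 3, mt-Co3, mt-Nd4 and mt-Cytb, the A tail that is added to the transcript completes the stop codon, as is known for mammalian mitochondria. Their last 60 bases are shown with those of mt-Nd5 and mt-Nd6, which face each other on opposite strands and had the smallest p-values among the members. These are the ends of the annotation and not measured transcript ends. Each sequence is written 5′ to 3′ on the gene's own strand, and capitals mark the letters of the stop codon that the DNA provides. The genes lie at chrM:8607-9390 (mt-Co3), chrM:10167-11544 (mt-Nd4), chrM:14145-15288 (mt-Cytb), chrM:11742-13565 (mt-Nd5) and, on the minus strand, chrM:13552-14070 (mt-Nd6).
mt-Co3: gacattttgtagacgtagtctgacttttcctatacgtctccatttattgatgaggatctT
mt-Nd4: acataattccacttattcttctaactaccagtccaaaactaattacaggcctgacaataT
mt-Cytb: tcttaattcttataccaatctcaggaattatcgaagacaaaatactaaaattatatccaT
mt-Nd5: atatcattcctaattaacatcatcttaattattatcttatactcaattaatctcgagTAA
mt-Nd6: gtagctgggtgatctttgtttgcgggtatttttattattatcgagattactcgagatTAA

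mt-Nd6 is the one mRNA that is encoded on the minus strand, and its last 14 bases overlap those of mt-Nd5. Of neighbouring gene pairs, mt-Atp8 and mt-Atp6 overlapped by 43 bases and mt-Nd4l and mt-Nd4 by 7 bases. On the same strand, mt-Nd1 overlapped the tRNA gene mt-Ti by 2 bases, and mt-Nd2 overlapped the tRNA gene mt-Tw by 2 bases. The last 2 letters of the annotated stop codons of mt-Nd1 and mt-Nd2, both TAG, thus also belong to a tRNA gene. The authors' counting gave a read to every gene it touched and set no strand option. Reads over a shared base were therefore counted for both genes, and a read antisense to mt-Nd6 could not be told apart from one of mt-Nd6 itself.

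Depth was between 3417167 and 7856830 counts per library (median 4880950), and the tested genes had a common biological coefficient of variation of 0.263. The epithelial markers Krt8, Krt18, Epcam and Cdh1 and the mesenchymal markers Vim, Fn1 and Cdh2 had counts in all 18 libraries, and Krt19 had a count in 1 library. Of the endothelial markers, Cdh5 had no count and Pecam1 was at 0.435 to 4.12 CPM (counts scaled to library size). Of the leukocyte markers, Ptprc was at 0 to 17 CPM with counts in 17 libraries and Itgam at 0.211 to 6.55 CPM in all 18, while Cd3e had counts in 6 libraries. DMSO replicate 3 and IFNγ replicate 2 stood apart from the other 16 libraries. They had the largest shares of Gm42418, a transcript that overlaps a ribosomal RNA repeat, at 20.1% and 23.0% of all counts, against 7.11 to 16.2% in the others.

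Mitochondrial genes took between 1.06% (95% Wilson interval 1.05 to 1.07) and 2.23% (2.22 to 2.24) of all counts, and these intervals cover counting error only. Within this share the 2 rRNAs held 50.7 to 61.8%, the 13 mRNAs 33.8 to 47.7% and the 22 tRNAs 1.16 to 5.63%. Most of the mitochondrial signal in these libraries was thus ribosomal RNA. mt-Rnr2, the large-subunit rRNA, alone made up 38.9% of mitochondrial counts on average, and mt-Rnr1, the small-subunit rRNA, made up 17.1%. The mRNA with most counts was mt-Co3, a subunit of cytochrome c oxidase, with 9.35% of mitochondrial counts, followed by mt-Atp6 of ATP synthase with 5.96% and mt-Nd4 of complex I with 5.35%.

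Levels between genes were compared as counts normalized to library size (CPM) per kilobase of gene, given as the mean ± SD of 18 libraries; with 3′ reads this scale is not a count of molecules. On it mt-Rnr2 was highest at 4135 ± 779 and mt-Rnr1 followed at 2972 ± 467. Among the mRNAs, mt-Co3 was at 1987 ± 431, mt-Atp6 at 1479 ± 399.8 and mt-Co2, another subunit of cytochrome c oxidase, at 1060 ± 347. The complex I subunit mRNAs covered a wide range, and all but mt-Nd6 lie on the plus strand. mt-Nd2 was at 842 ± 285 CPM per kilobase, mt-Nd4 at 656 ± 214 and mt-Nd1 at 656 ± 121. The last 2 did not differ beyond their spread on this scale. Without the division by length mt-Nd4 was at 904 CPM and mt-Nd1 at 627 CPM on average. Per kilobase, mt-Nd3 (176 ± 54.8), mt-Nd4l (154 ± 26.6) and mt-Nd6 (111 ± 36.0) were lower. mt-Nd5, with 51.4 ± 12.5 CPM per kilobase, was the lowest of the 13 mRNAs on this scale. Between these lie mt-Cytb of complex III (409 ± 157), mt-Co1 of complex IV (383 ± 89.1) and mt-Atp8 of ATP synthase (183 ± 31.4). The rank of mt-Nd5 came from the division by length, as its gene is the longest of the 13 (1824 bases). Without that division mt-Nd5 was at 93.8 CPM on average, above mt-Nd3 (61.2), mt-Nd6 (57.5), mt-Nd4l (45.8) and mt-Atp8 (37.3).

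The share of all counts that mitochondrial genes took was lowest in A-485. In DMSO it was 1.83%, 1.94% and 1.47%, in A-241 2.23%, 1.77% and 1.75%, and in A-485 1.51%, 1.09% and 1.30%. The 3 A-485 libraries lay below all 3 A-241 libraries, and overlapped with DMSO only through DMSO replicate 3, one of the libraries that stood apart. With IFNγ the shares were 1.78%, 1.06% and 1.91% for IFNγ alone, 1.53%, 1.75% and 1.79% for A-241+IFNγ and 1.73%, 1.71% and 2.09% for A-485+IFNγ. The lowest of these 9 values was IFNγ replicate 2, the other library that stood apart, and all A-485+IFNγ libraries lay above all A-485 libraries. With Gm42418 taken out of the totals, A-485 (1.31 to 1.69%) no longer overlapped with DMSO (1.85 to 2.13%). As mean ± SD of 3 libraries with the full totals, the shares were 1.75 ± 0.242% (DMSO), 1.92 ± 0.271% (A-241), 1.30 ± 0.206% (A-485), 1.58 ± 0.458% (IFNγ), 1.69 ± 0.139% (A-241+IFNγ) and 1.85 ± 0.215% (A-485+IFNγ). Without DMSO replicate 3 the mean of DMSO was 1.88%, and without IFNγ replicate 2 that of IFNγ was 1.84%. In bulk RNA a lower share cannot be told apart from more nuclear mRNA per cell or from a different mix of cells.

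**Figure D1:**
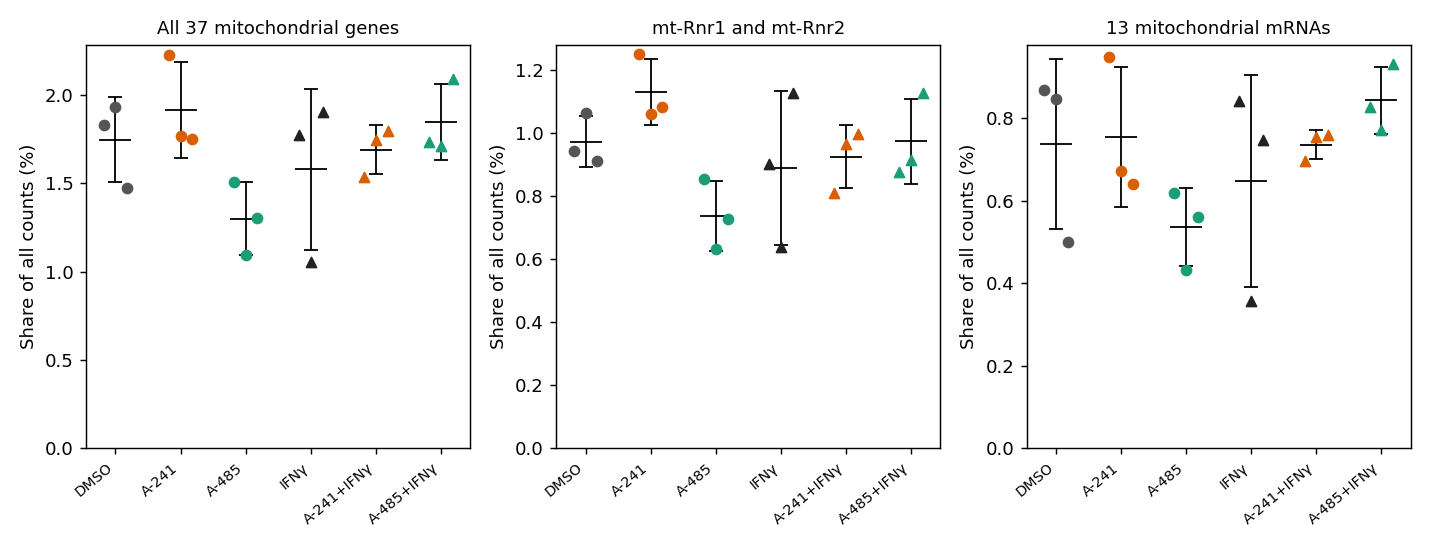
Share of all counts (%) taken by the 37 mitochondrial genes, the 2 rRNAs and the 13 mRNAs, 1 point per library in each of the 6 conditions, with the mean (long line) and SD of 3 libraries. The A-485 libraries, at 1.09 to 1.51% for all 37 genes, sit below the A-241 and the A-485+IFNγ libraries, and the IFNγ libraries spread most because replicate 2 is at 1.06%.

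The balance between mRNA and rRNA differed between libraries of the same condition. The ratio of mRNA to rRNA counts ran from 0.548 to 0.942, and the 2 lowest values were those of DMSO replicate 3 (0.548) and IFNγ replicate 2 (0.558). The other 16 libraries lay between 0.592 and 0.942. By condition the ratio was 0.754 ± 0.189 in DMSO, 0.662 ± 0.0868 in A-241, 0.725 ± 0.0439 in A-485, 0.718 ± 0.194 in IFNγ, 0.799 ± 0.0513 in A-241+IFNγ and 0.870 ± 0.0624 in A-485+IFNγ (mean ± SD, n = 3). The ranges of all conditions overlapped with that of DMSO, which ran from 0.548 to 0.918. For A-241 (0.592 to 0.759) and A-485 (0.683 to 0.770) this overlap came through DMSO replicate 3, since the other DMSO libraries were at 0.918 and 0.795. Without IFNγ replicate 2, the IFNγ libraries were at 0.933 and 0.661. The 2 libraries with the lowest ratios were those with the most Gm42418, and its part in the differences between conditions was not tested.

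**Figure D2:**
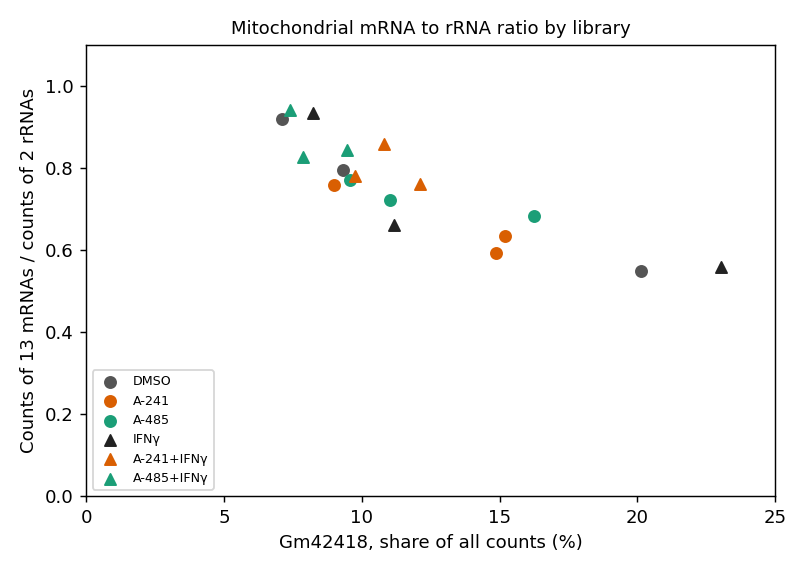
Ratio of counts of the 13 mitochondrial mRNAs to counts of the 2 mitochondrial rRNAs (vertical axis) against the share of all counts on Gm42418 in % (horizontal axis), 1 point per library, with the 6 conditions by colour and symbol. DMSO replicate 3 and IFNγ replicate 2 lie at the far right with ratios of 0.548 and 0.558, and the other 16 libraries lie between 0.592 and 0.942.

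For tests between conditions, counts were scaled by TMM factors and fitted with edgeR over all genes, and a gene was called at a Benjamini-Hochberg adjusted p under 0.01. The rRNAs, the scaffold of the ribosome that translates the 13 mRNAs, are described first, in normalized CPM. mt-Rnr1 was at 2890.4, 2835 and 3734 in DMSO, 3495, 3180.1 and 3151 in A-241 and 2663, 2268 and 2271 in A-485. With IFNγ mt-Rnr1 was at 2370.0, 3179.8 and 3148, with A-241+IFNγ at 2375, 2368 and 3151, and with A-485+IFNγ at 2436, 2542 and 3036 CPM. The A-485 libraries were thus below every DMSO and every A-241 library, and overlapped with each group that received IFNγ. The log2 fold change of mt-Rnr1 in A-485 against DMSO was -0.39 (SE 0.178, edgeR adjusted p = 0.381), which was not called.

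mt-Rnr2 was lowest in A-485 as well. It was at 6648, 7491 and 7016 CPM in DMSO, 8814, 7022 and 7208 in A-241 and 5565, 4037 and 4951 in A-485. In IFNγ it was at 6355, 4919.6 and 8231, in A-241+IFNγ at 5546, 6334 and 6876, and in A-485+IFNγ at 6126, 6579 and 8043. All A-485 libraries lay below all DMSO, all A-241 and all A-485+IFNγ libraries. The log2 fold changes were -0.54 (SE 0.200, adjusted p = 0.235) for A-485 against DMSO, 0.66 (SE 0.200, adjusted p = 0.196) for A-241 against A-485, and 0.51 (SE 0.199, adjusted p = 0.57) for A-485+IFNγ against A-485, and edgeR called none of them.

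Of the mRNAs for cytochrome c oxidase and ATP synthase, mt-Co3 and mt-Atp6 had the most counts. mt-Co3 was at 1689.7, 1293 and 2307 CPM in DMSO, 1921, 1496 and 1297 in A-241, and 1197, 940.2 and 1324 in A-485. With IFNγ mt-Co3 was at 1281, 1854 and 1665, with A-241+IFNγ at 1579, 1266 and 1722, and with A-485+IFNγ at 1667, 1513 and 2023 CPM. The A-485 libraries of mt-Co3 overlapped with DMSO and lay below all those of A-485+IFNγ. The library with the highest value was DMSO replicate 3, whereas for mt-Atp6 the same library was the lowest in its group.

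mt-Atp6, the subunit of ATP synthase that forms part of its proton channel, was at 1229, 1187 and 616 CPM in DMSO, 1263, 929 and 934 in A-241, and 733, 603 and 884 in A-485. It was at 1223, 429.9 and 1228 in IFNγ, 873, 1015 and 1199 in A-241+IFNγ, and 1213, 1203 and 1368 in A-485+IFNγ. The low values of 616 and 429.9 were those of DMSO replicate 3 and IFNγ replicate 2. In A-485 against DMSO the log2 fold change was -0.45 for mt-Atp6 (SE 0.330, adjusted p = 0.617) and -0.61 for mt-Co3 (SE 0.233, adjusted p = 0.257), and neither was called. The same pair of libraries was far from the rest in mt-Co2 and mt-Cytb, which were chosen here after their values were seen. mt-Co2 had 225 and 205 CPM in DMSO replicate 3 and IFNγ replicate 2, against 453 to 1073 in the other 16 libraries, and mt-Cytb had 156 and 136 against 265 to 827 CPM.

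Complex I takes 7 of the 13 mRNAs, and it held the members with the smallest p-values. mt-Nd4, the one with most counts, was at 1513, 1287 and 545 CPM in DMSO, 1057, 834 and 723 in A-241, and 943, 539.9 and 622 in A-485. With IFNγ mt-Nd4 was at 1204, 373 and 764, with A-241+IFNγ at 826, 842 and 895, and with A-485+IFNγ at 1139, 956 and 1211 CPM. Only through DMSO replicate 3 did DMSO overlap with A-485, and the fitted log2 fold change of A-485 against DMSO was -0.67 (SE 0.375, adjusted p = 0.499).

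mt-Nd5, given in full after its values were seen, was at 119.7, 110.4 and 153 CPM in DMSO and at 83.5, 55.7 and 66.5 in A-485. It was at 119, 84.5 and 76.7 in A-241, 91.8, 88.8 and 87.8 in IFNγ, 79.4, 78.1 and 91.6 in A-241+IFNγ, and 111, 86.1 and 104 in A-485+IFNγ. All A-485 libraries were below all DMSO libraries, as were all IFNγ libraries. Unlike mt-Atp6 or mt-Nd4, this mRNA was high and not low in DMSO replicate 3. The log2 fold change of A-485 against DMSO was -0.90 (SE 0.196, adjusted p = 0.0241), the smallest adjusted p of any member in that comparison and above the threshold.

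mt-Nd6, the complex I subunit of the minus strand, was at 53.3, 58.1 and 81.2 CPM in DMSO, 47.7, 34.5 and 41.7 in A-241, and 41, 29.4 and 42.8 in A-485. With IFNγ it was at 44.5, 50.6 and 60.2, with A-241+IFNγ at 56.8, 61.3 and 71.8, and with A-485+IFNγ at 90.7, 74.9 and 94.2 CPM. Without IFNγ both inhibitor groups lay below all DMSO libraries, and with IFNγ the A-485+IFNγ libraries lay above all IFNγ and all A-241+IFNγ libraries. Its raw counts ran from 154 to 496 per library.

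**Figure D3:**
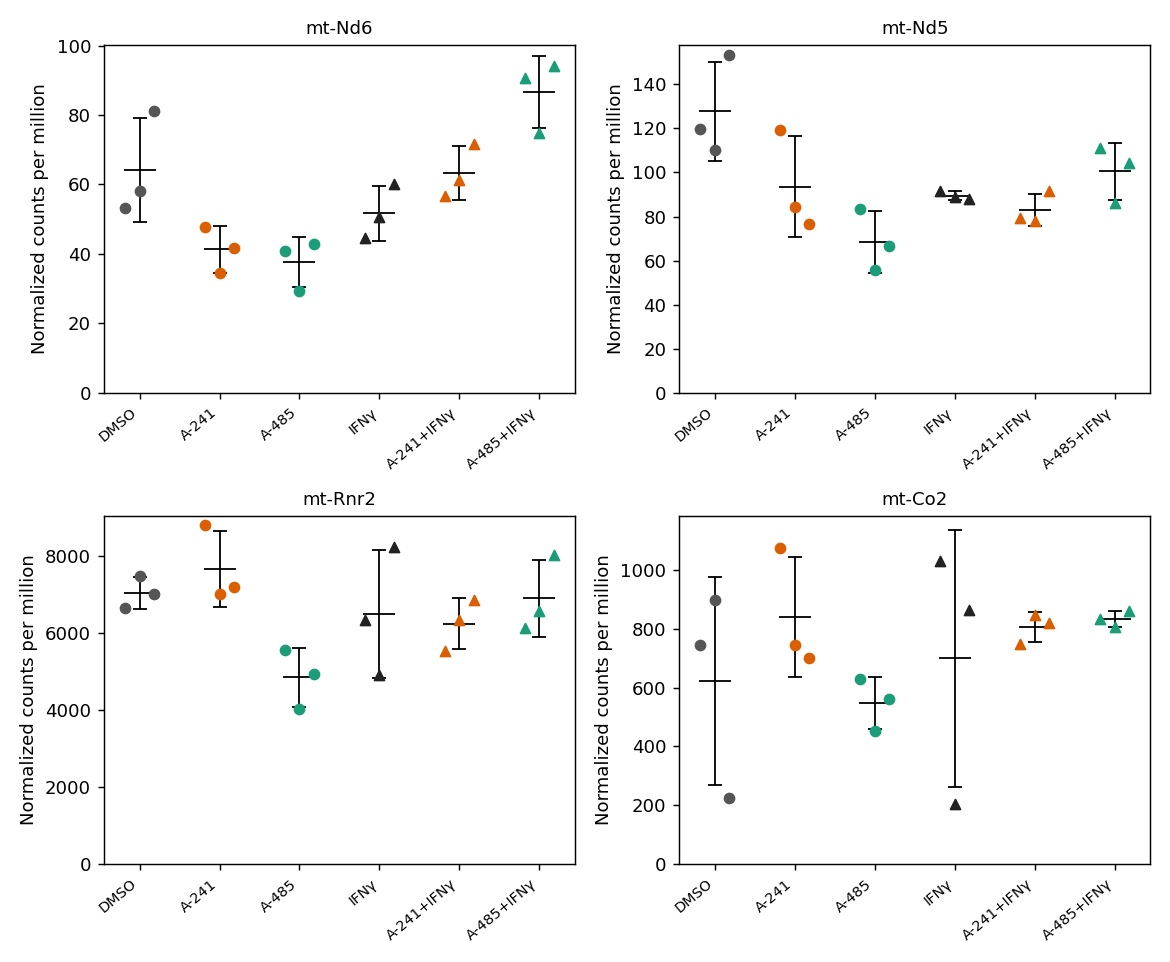
Normalized CPM of mt-Nd6, mt-Nd5, mt-Rnr2 and mt-Co2 in each library (points) of the 6 conditions, with the mean (long line) and SD of 3 libraries; each vertical axis starts at 0 and has its own range. mt-Nd6 reaches 74.9 to 94.2 in A-485+IFNγ against 29.4 to 42.8 in A-485, and mt-Co2 shows DMSO replicate 3 and IFNγ replicate 2 at 225 and 205.

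A-485 against DMSO, the comparison of this inhibitor with vehicle at steady state, gave lower fitted levels for most members, none of which passed the test. No member was called by edgeR (0 of 31) or by limma-voom, and DESeq2 called 1, mt-Nd5, as lower; over all genes edgeR called 79 (0.66%). At an unadjusted p under 0.05 there were 9 members, all with lower levels, where 12.3% of all genes tested had such a p. They were mt-Nd5, mt-Nd6, mt-Nd1, mt-Co3, both rRNAs and the tRNAs mt-Ti, mt-Tg and mt-Tp. The median log2 fold change of the 31 members was -0.45, against -0.0038 for all genes, and 29 of 31 members were below 0, against 50.3% of all genes. All 13 mRNAs were below 0, from -0.90 (mt-Nd5) to -0.18 (mt-Atp8). The groups did not overlap for 6 members, 5 lower in A-485 (mt-Rnr1, mt-Rnr2, mt-Nd1, mt-Nd5 and mt-Nd6) and 1 higher (mt-Tt), and 15.9% of all genes had groups that did not overlap. The 31 members are read from 1 set of precursor RNAs and share neighbouring reads, so they are not independent. Without DMSO replicate 3 alone the median was -0.15 and 19 of 31 members were below 0, among them all 13 mRNAs. Without DMSO replicate 3 and IFNγ replicate 2 the median of the members was -0.19 and 19 were below 0, and edgeR called 2 members, mt-Nd4 and mt-Cytb, both lower, among 298 genes called. With 2 surrogate variables in the model the median was -0.30 and edgeR called 10 members lower and 1 higher, among 765 genes called.

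A-485+IFNγ against A-485, the response to IFNγ in the presence of the inhibitor, had the one member that edgeR called. Counts at mt-Nd6, made without a strand option, rose from 37.7 ± 7.25 to 86.6 ± 10.3 CPM (mean ± SD, n = 3 libraries). The log2 fold change was 1.20 (SE 0.203, edgeR adjusted p = 0.00363), and all A-485+IFNγ libraries were above all A-485 libraries. mt-Nd6 was the one of 31 members that was called, where 0.802% of all genes were called. The call was lost, with log2 fold changes of 1.05 to 1.26 and adjusted p from 0.0156 to 0.0331, when A-485 replicate 1 or 2 or A-485+IFNγ replicate 1 or 3 was left out. Reads antisense to mt-Nd6 could add to its counts, and this was not tested.

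The other members in this comparison were mostly higher in fitted level with IFNγ, without being called. All 13 mRNAs had log2 fold changes above 0, from 0.20 (mt-Nd3) to 1.20 (mt-Nd6), and the median of the 31 members was 0.37, against -0.0080 for all genes. Without A-485 replicate 3 the median was 0.18, with all 13 mRNAs still above 0. At an unadjusted p under 0.05 there were 9 members, all higher, where 5.83% of all genes had such a p. These were mt-Nd6, mt-Nd1, mt-Nd5, mt-Nd4l, mt-Co1, mt-Co3, mt-Atp6, mt-Rnr2 and mt-Ti. The groups did not overlap for 13 members, 12 higher and 1 lower (mt-Tn), and 18% of all genes had groups that did not overlap. This comparison and A-485 against DMSO share the A-485 libraries, so low values in those 3 libraries would enter both with opposite signs.

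**Figure D4:**
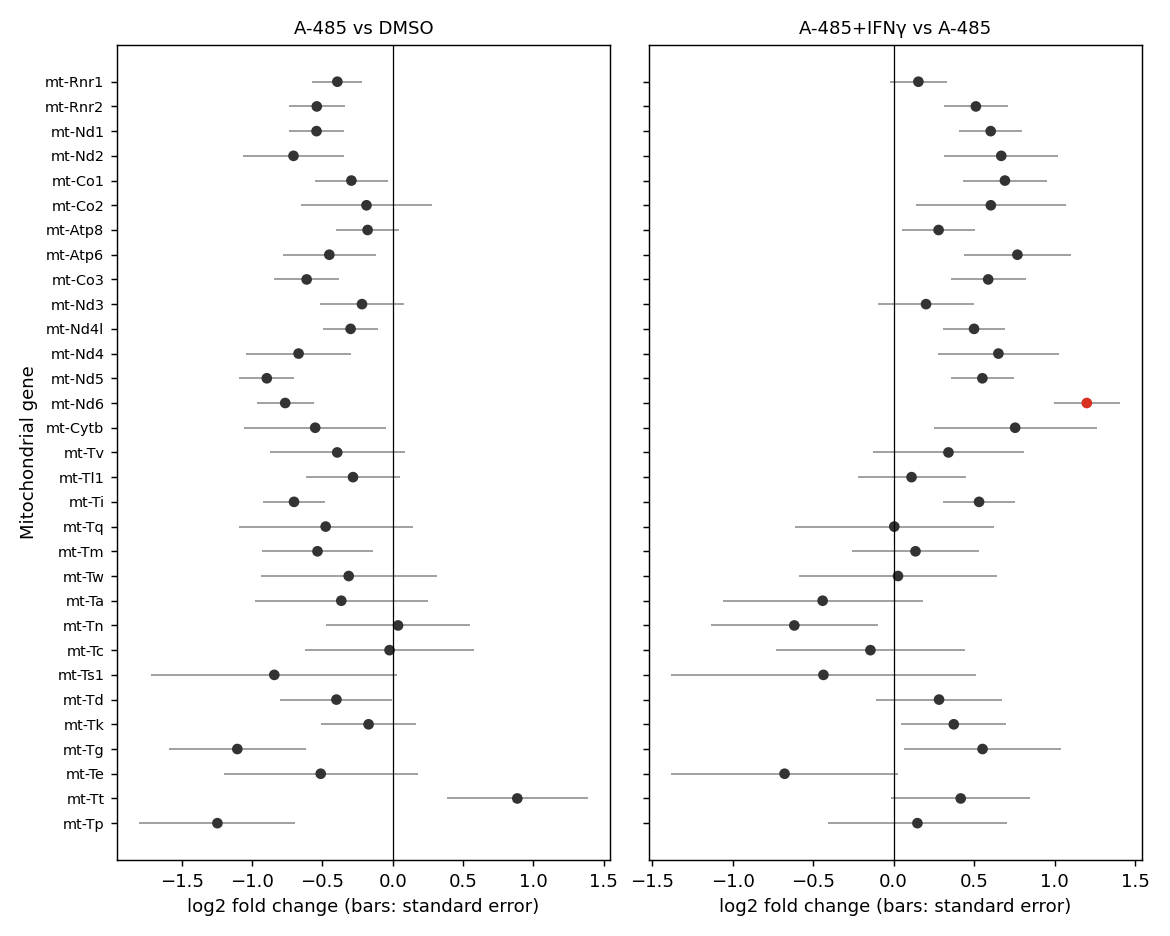
log2 fold change (edgeR, horizontal axis, bars are the standard error) of the 31 mitochondrial genes tested, for A-485 against DMSO (left) and A-485+IFNγ against A-485 (right), in the order rRNAs, mRNAs and tRNAs. On the left 29 of 31 genes lie below 0 and none is called, and on the right all 13 mRNAs lie above 0 and mt-Nd6, at 1.20, is the one called (red). Both panels use the same 3 A-485 libraries.

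A-241 against DMSO changed many nuclear genes and no mitochondrial gene by the test. edgeR called 521 genes (4.35%) and 0 of 31 members, and DESeq2 and limma-voom also called 0 members. Of the members, 3 had an unadjusted p under 0.05, against 23.2% of all genes. mt-Nd6 had a log2 fold change of -0.63 (SE 0.202, adjusted p = 0.0642) and mt-Nd5 of -0.45 (adjusted p = 0.176), whereas mt-Tt, a tRNA with 0.691 to 3.61 CPM in the 18 libraries, was at 1.44 (SE 0.480, adjusted p = 0.0738). The median member was at -0.15, against 0.014 for all genes, and the mRNAs ran from -0.63 to 0.43. The sign of this median rested on DMSO replicate 3, without which it was 0.13, and it was 0.086 without both libraries that stood apart. mt-Rnr2 was at 0.12 (SE 0.199, adjusted p = 0.754) in this comparison, beside -0.54 for A-485 against DMSO.

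The inhibitors were also set against each other without IFNγ, at doses that differ. In A-241 against A-485 edgeR called 44 genes (0.368%) and 0 of 31 members, and DESeq2 and limma-voom called none of them either. At an unadjusted p under 0.05 there were 4 members, all higher in A-241, namely mt-Rnr2, mt-Rnr1, mt-Nd5 and mt-Nd1, where 8.15% of all genes had such a p. The median of the members was 0.35, against 0.0055 for all genes, and 0.21 without A-485 replicate 3. The groups did not overlap for 8 members, all higher in A-241, and 22.6% of all genes had groups that did not overlap.

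IFNγ against DMSO left the mitochondrial genes without a call. edgeR called 156 genes (1.3%) and 0 of 31 members, and so did DESeq2 and limma-voom for the members. The median member was at 0.046 on the log2 scale, with 15 members below 0 and 16 above, and it ran from -0.17 (without IFNγ replicate 2) to 0.12 (without DMSO replicate 3) with 1 library left out. At an unadjusted p under 0.05 there were 2, mt-Nd5 with a log2 fold change of -0.51 (SE 0.194, adjusted p = 0.376) and mt-Tt with 1.13 (SE 0.485, adjusted p = 0.491), against 8.49% of all genes. Each of the groups compared here holds 1 of the libraries that stood apart, and without both edgeR also called 0 members, at the same threshold.

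With IFNγ present, the inhibitors were compared with IFNγ alone and with each other. A-241+IFNγ against IFNγ had 489 genes called (4.09%) and 0 members, with 0 members at an unadjusted p under 0.05 and none called by DESeq2 or limma-voom. A-485+IFNγ against IFNγ had 66 genes called (0.552%) and 0 members by any of the 3 tools. The one member with an unadjusted p under 0.05 was mt-Nd6, with a log2 fold change of 0.74 (SE 0.201, adjusted p = 0.0773) and every A-485+IFNγ library above every IFNγ library. A-241+IFNγ against A-485+IFNγ had 62 genes called (0.518%) and 0 members by edgeR, DESeq2 or limma-voom. mt-Nd6 was again the one member with an unadjusted p under 0.05, at -0.45 (SE 0.199, adjusted p = 0.678). A-241+IFNγ against A-241 had 23 genes called (0.192%) and 0 members by the same tools, and its one member with an unadjusted p under 0.05 was mt-Nd6, at 0.62 (SE 0.202, adjusted p = 0.696). The medians of the members in these 4 comparisons were -0.14, -0.051, -0.11 and -0.061 in this order, and each took the opposite sign in at least 1 alternative.

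Whether the response to IFNγ differed with an inhibitor was tested as an interaction, in which the IFNγ response of uninhibited cells is subtracted from that of inhibited ones. For A-485, edgeR called 0 of 11964 genes (0%) and 0 members, while 8 members had an unadjusted p under 0.05, all with positive differences, beside 4.17% of all genes. mt-Nd6 had the largest of these differences, 1.51 on the log2 scale (SE 0.285, adjusted p = 0.181), and the others were mt-Nd5, mt-Nd1, mt-Nd2, mt-Nd4, mt-Nd4l, mt-Co3 and mt-Rnr2. For A-241, edgeR called 4 genes (0.0334%) and 0 members, with 1 member at an unadjusted p under 0.05, mt-Nd6 at 0.92 (SE 0.285, adjusted p = 0.707). These interactions were fitted with edgeR alone and were added after the data were seen. Both use the DMSO and IFNγ groups, which hold the libraries that stood apart. The A-485 interaction also reuses the A-485 libraries of the comparisons above, and the members are not independent. Its count of members is thus not separate evidence.

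The 22 tRNAs, which carry amino acids to the mitochondrial ribosome, are 59 to 75 bases long and the reads had 75 bases. Their counts differed widely between genes of like length. Summed over the 18 libraries, 16 had at least 100 counts. The highest was mt-Tq with 9294, then mt-Ti with 4966, mt-Tl1 with 3303, mt-Tg with 2271, mt-Tp with 1976, mt-Te with 1388 and mt-Tm with 1099. The rest of the 16 were mt-Tc, mt-Ta, mt-Td, mt-Tn, mt-Tw, mt-Tv, mt-Tk, mt-Tt and mt-Ts1, from 906 down to 164. Every tRNA lies within 32 bases of a neighbouring gene, so a read of 75 bases that reaches a tRNA can also belong to a neighbour or a precursor. mt-Tq (chrM:3772-3842, minus strand) overlaps mt-Ti (chrM:3706-3774) by 3 bases on the opposite strand, and mt-Te (chrM:14071-14139, minus strand) abuts mt-Nd6 on the same strand. mt-Tq and mt-Te are shown because their levels set 2 libraries apart, and mt-Ti as the gene that mt-Tq overlaps. They are taken from the annotation's transcripts on the gene's own strand with no letter in capitals.
mt-Tq: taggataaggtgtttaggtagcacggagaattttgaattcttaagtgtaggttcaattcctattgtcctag
mt-Ti: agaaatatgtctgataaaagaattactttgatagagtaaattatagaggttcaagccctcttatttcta
mt-Te: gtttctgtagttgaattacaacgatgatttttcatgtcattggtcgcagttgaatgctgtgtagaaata

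Summed, the tRNAs of the minus strand had their largest shares in the libraries that stood apart. mt-Tq, the tRNA for glutamine, was at 295 CPM in DMSO replicate 3 and 358 in IFNγ replicate 2, against 45.3 to 123 in the other 16 libraries. mt-Te, the tRNA for glutamate, was at 53.9 and 52.1 CPM in this pair, against 6.53 to 22 in the others. The 8 minus-strand tRNAs together took 2.91% and 4.14% of mitochondrial counts in these libraries and 0.442 to 1.76% in the others. The tRNAs of the plus strand took 1.5% and 1.49% in the same libraries and 0.627 to 1.08% in the others. No tRNA was called by edgeR in any of the 9 comparisons.

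Several mitochondrial mRNAs could not be told apart from copies of mitochondrial DNA in the nuclear genome. Among annotated transcripts, 12 nuclear genes shared at least one stretch of 75 bases, the length of a read, with 9 of the 37 mitochondrial genes. A block of 7 such pseudogenes lies at chr1:24611535-24616197, and they took 0.226 to 0.483% of all counts. Gm28437 in this block was identical to mt-Co3 over 783 bases, Gm28661 to mt-Co2 over 681 and Gm10925 to mt-Atp6 over 678. The bases from 724 to 783 of mt-Co3, counted from its first base, are shown with the matching stretch of Gm28437 (chr1:24613189-24613971, minus strand), all in lower case because no letter differs.
mt-Co3: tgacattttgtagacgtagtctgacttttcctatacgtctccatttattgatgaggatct
Gm28437: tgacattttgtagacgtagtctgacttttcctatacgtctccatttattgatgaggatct

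The counts of the copies followed those of the mitochondrial genes. The ratio of Gm28437 to mt-Co3 counts was 1.00 to 1.01 in the 18 libraries, that of Gm28661 to mt-Co2 1.00 to 1.04, and that of Gm10925 to mt-Atp6 1.00 to 1.09. Gm10222 and mt-Nd4l had ratios of 0.979 to 1.02, and Gm28438 and mt-Nd3 of 1.01 to 1.21. Where only a part of the gene is in the copy the ratio was lower, with a median of 0.315 for Gm29216 and mt-Co1 and 0.107 for Gm28439 and mt-Nd4. Copies outside the block had medians of 0.153 (Gm13341 and mt-Co2), 0.160 (Gm13340 and mt-Co1), 0.0184 (Gm13339 and mt-Nd2) and 0.0775 (Gm4076 and mt-Nd5). A read in an identical stretch carries no mark of its origin, so these counts do not say which of the 2 loci was transcribed. Whether the same reads were counted at both loci, and so entered the total more than once, was not tested. With the chromosome 1 copies left out of the total, the mitochondrial share ran from 1.06% (IFNγ replicate 2) to 2.24% (A-241 replicate 1). No nuclear transcript in the annotation shared 75 bases with mt-Nd6 or either rRNA.

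**Figure D5:**
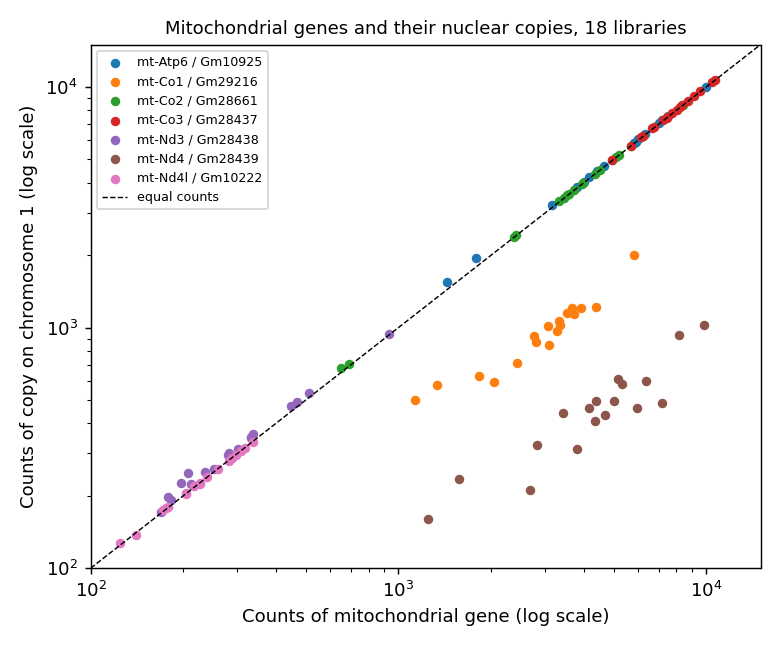
Counts of 7 pseudogenes in the block on chromosome 1 (vertical axis, log scale) against counts of the mitochondrial gene each copies (horizontal axis, log scale), 1 point per library and pair, with a dashed line of equal counts. Pairs such as Gm28437 and mt-Co3 lie on the line, with ratios of 1.00 to 1.01, while Gm29216 and Gm28439 lie below it.

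Nuclear genes whose products work with the mitochondrial ones were counted in the same way. Of the nuclear subunits of complexes I to V, 77 were tested, and edgeR called 0 in each of the 9 comparisons, with 0 to 2 at an unadjusted p under 0.05. Their median log2 fold change was 0.036 in A-485 against DMSO and 0.087 in A-485+IFNγ against A-485, beside the members' medians of -0.45 and 0.37. Of 34 tested genes of mitochondrial RNA processing, polyadenylation and decay, edgeR called 0 in any comparison, with up to 6 at an unadjusted p under 0.05. The next 2 counts are to be read against the 4.35% of all genes called in A-241 against DMSO. Of the 16 tested genes of mitochondrial DNA replication and transcription, 1 was called, Twnk, the replicative helicase, which was lower in A-241 than in DMSO with 6.95 against 14.9 CPM (log2 fold change -1.09, SE 0.232, edgeR adjusted p = 0.00677). Of 78 tested genes of mitochondrial ribosomal proteins, 1 was called, Mrpl1, which was higher in A-241 than in DMSO (log2 fold change 0.86, SE 0.191, edgeR adjusted p = 0.00877).

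Calls among nuclear regulators of mitochondrial biogenesis were made for A-241. Of 13 tested, 6 were lower and 1 higher in A-241 than in DMSO, beside the 4.35% of all genes called in that comparison. The higher one was Nrf1, at 39.7 CPM in A-241 against 22.1 in DMSO (log2 fold change 0.85, SE 0.178, edgeR adjusted p = 0.00608). Of the lower ones, the 3 with the smallest adjusted p are given. Myc, a transcription factor of growth, fell from 13.7 to 0.407 CPM (log2 fold change -4.93, SE 0.641, edgeR adjusted p = 0.000115). Ppargc1a, the co-activator PGC-1α, fell from 13.2 to 2.07 CPM (log2 fold change -2.68, SE 0.402, edgeR adjusted p = 0.000417). Pprc1, a relative of PGC-1α, fell from 18.7 to 9.05 CPM. In A-241+IFNγ against IFNγ, where 4.09% of all genes were called, 4 were lower and 1 higher, among them Nrip1 (log2 fold change -1.09), Myc (-3.64) and Sirt1 (1.31). In A-241 against A-485, where 0.368% of all genes were called, the 2 called, Myc and Pprc1, were both lower in A-241, and no gene of this list was called by edgeR for A-485 in the comparisons with DMSO or with IFNγ, where 5 and 4 had an unadjusted p under 0.05. Over all nuclear lists together, DESeq2 called 11 genes and limma-voom 8 in A-241 against DMSO, where edgeR called 9, and for A-485 against DMSO and A-485+IFNγ against IFNγ DESeq2 called 2 each and limma-voom 0. All lists of nuclear genes were compiled by hand with earlier results of these data known. The counts of their called genes beside the shares of all genes therefore do not measure enrichment.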

How the data were processed

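RNA from AT3 cells was sequenced as 75-base single-end QuantSeq reads. The authors trimmed reads with cutadapt (1.7), aligned them to GRCm38 with HISAT2 (2.1.0) and counted them on exons with featureCounts, assigning a read to every overlapping gene, and deposited raw counts per gene; the annotation release and the treatment of reads that align to several places are not given in the sources used here. Total counts were 3417167 to 7856830 per library, and 3 counts correspond to 0.382 to 0.878 CPM.

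Identifiers were joined to GENCODE vM21 (97.5% matched). Genes were kept by filterByExpr, scaled by TMM and fitted with glmQLFit of edgeR (4.0.16, in R 4.3.3) with a mean per condition over 18 libraries; glmQLFTest p-values were adjusted by Benjamini-Hochberg over 11964 genes and called under 0.01. Replicates were taken as labelled. Pairs of replicates differed by more than sampling noise (chi-square per degree of freedom 2.09 to 125). The method was tested on simulated data with the same dispersion for all genes and no library that stood apart, unlike the data here. Nuclear copies were found by exact matches of 75-base windows between annotated transcripts. Alternatives were DESeq2 (1.42.0), limma-voom (3.58.1), other filters, scalings and denominators, a replicate block, 2 surrogate variables (sva 3.50.0), fits of 6 libraries, and libraries left out; the share without the chromosome 1 copies and the interactions were added after seeing the data.

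Values in every library were given for the rRNAs, the 3 mRNAs with most counts, mt-Nd6 and each member called, and other members by range and count. tRNAs were named from 100 summed counts, nuclear copies from 10 counts per library on average, and nuclear genes where called, at most 3 per list and comparison. Nrf1 was named in addition, as the one regulator called higher in A-241 than in DMSO. The members and lists were chosen with earlier results of these data known.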

Additional observations from a re-analysis of the deposited data

How the results depend on the processing

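Recomputed under the alternatives, 140 counts of mitochondrial genes called stayed at the reported value and 22 moved. The sign of the members' median log2 fold change turned in 4 of 17 alternatives for A-241 against DMSO (0.13 without DMSO replicate 3), 7 for IFNγ against DMSO (-0.17 without IFNγ replicate 2), 3 for A-485+IFNγ against IFNγ (0.096 with 2 surrogate variables) and 1 each for A-241+IFNγ against IFNγ (0.019 with total counts), against A-485+IFNγ (0.019 without A-485+IFNγ replicate 3) and against A-241 (0.034 without A-241 replicate 1), and in none for the other 3 comparisons. Total counts in place of TMM moved the median of all genes to 0.12 for A-241 against DMSO and 0.13 for A-241+IFNγ against IFNγ. With 2 surrogate variables the number called was 3 for A-241 against DMSO, 11 for A-485 against DMSO, 5 for A-241 against A-485, 1 for IFNγ against DMSO, 1 for A-485+IFNγ against IFNγ and 7 for A-485+IFNγ against A-485; the cause was not tested. At an unadjusted p under 0.05 in place of the threshold, these were 3, 9, 4, 2, 1 and 9, and A-241+IFNγ against A-485+IFNγ and against A-241 had 1 each. For A-485 against DMSO, DESeq2 called 1 and the fit without DMSO replicate 3 and IFNγ replicate 2 called 2. For A-485+IFNγ against A-485, that fit called 2 (mt-Atp6 and mt-Nd6) and the fit of only the 6 libraries compared called 2. Leaving out 1 library at a time gave 0 to 1 there, and the log2 fold change of mt-Nd6 ran from 1.05 to 1.30. The call for mt-Nd6 was lost in 4 of these and held in 13 alternatives. Of the nuclear lists, DESeq2 called 2 genes for A-485 against DMSO and 2 for A-485+IFNγ against IFNγ, where edgeR called 0; for A-241 against A-485, where edgeR called 2, total counts in place of TMM gave 1 and limma-voom 0.

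The 13 mRNAs alone took 0.738% of all counts in DMSO, 0.754% in A-241, 0.536% in A-485, 0.649% in IFNγ, 0.736% in A-241+IFNγ and 0.843% in A-485+IFNγ, by construction below the share of all 37 genes. Without Gm42418 in the total, the mitochondrial share was 2.20% in A-241 and 1.90% in A-241+IFNγ, and the other conditions moved by less than their SD, although A-485 and DMSO then no longer overlapped. The replicate numbers did not pair the libraries. Of 45 pairs with the same number in different conditions, 15 had deviations correlated above 0.1, with a median of -0.018. Among 90 pairs with different numbers, 28 were above 0.1, with a median of -0.021. Of 18 libraries, 3 correlated best with their own number. With the replicate block the log2 fold change of mt-Nd6 in A-485+IFNγ against A-485 was 1.21 (edgeR adjusted p = 0.00161), and 1 member was called there and 0 in the other 8 comparisons. tRNAs with few counts, reads shared with nuclear copies and 3 libraries per condition limit what could be detected.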
